A study of Mus musculus with 3 samples.

Results

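Lincenc1, Slc4a5, Magohb, Shcbp1 and Cr1l are 5 autosomal mouse genes that were chosen because their read counts were lower in a DAXX knockout and in an ATRX knockout embryonic stem cell library than in a wildtype library, and because they lie outside the germline, endoderm and imprinted gene groups. They are 5 of the 24006 genes counted, and they hold 14 of the 48843 transcript rows. Polyadenylated RNA was sequenced from a DAXX-/- clone named KO2-3, an ATRX-/- clone named KO1-44 and a wildtype clone named WT26. All of these are male, isogenic mouse embryonic stem cells of C57BL/6x129sV background, edited by CRISPR where they are knockouts, grown in serum with leukaemia inhibitory factor and taken off irradiated feeder cells before RNA extraction. Each genotype is represented by 1 clone and 1 library, so no difference has a replicate check and no test of genotype was possible. With a single wildtype clone, a feature of that clone and an effect shared by both knockouts cannot be told apart.

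Values in parentheses after a fold or a percentage of another library's level are a 95% interval of counting error between libraries. After the share of a gene's reads on a transcript row, they are a 95% interval of counting error within 1 library. A gene was called lower or higher where both ends of its fold interval passed 2-fold on the same side. Genes needed 1 CPM (reads scaled to a common library size) in either library compared to be tested. Because the members were chosen from the knockout over wildtype contrasts, their folds in those contrasts are a description. All values come from bulk RNA, in which fewer expressing cells and less RNA per cell cannot be told apart.

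ATRX and DAXX form a complex that places the histone variant H3.3 into repetitive and silent chromatin, and mouse stem cells without either protein derepress some endogenous retroviruses. The 5 genes belong to unrelated pathways. Lincenc1 (Lncenc1 in current annotation) is a long noncoding RNA of naive mouse embryonic stem cells that has been reported to bind the RNA-binding proteins PTBP1 and HNRNPK and to act on glycolysis genes. Slc4a5 encodes an electrogenic sodium bicarbonate cotransporter best known from kidney and choroid plexus. Magohb encodes a near-twin of MAGOH, a core subunit of the exon junction complex that marks spliced messenger RNA. Shcbp1 encodes a protein that binds the signalling adaptor SHC1 and, in human cells, the centralspindlin complex of dividing cells. Cr1l, also called Crry, encodes a rodent membrane protein that blocks complement activation on the cell surface.

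Promoter sequences are shown as a description, since the fall shared by these genes is what chose them. CpG sites, in capitals, are where mammalian DNA is methylated. Methylation was not measured in this series. RefSeq promoters of build GRCm38.p6, spanning 250 bases before to 50 after the start, were matched for 4 of the 5 genes, all but Shcbp1. The Lincenc1 window is chr13:97434720-97435019 on the plus strand, the Slc4a5 window chr6:83237125-83237424 on the plus strand, the Magohb window chr6:131293195-131293494 on the minus strand and the Cr1l window chr1:195131521-195131820 on the minus strand.
Lincenc1: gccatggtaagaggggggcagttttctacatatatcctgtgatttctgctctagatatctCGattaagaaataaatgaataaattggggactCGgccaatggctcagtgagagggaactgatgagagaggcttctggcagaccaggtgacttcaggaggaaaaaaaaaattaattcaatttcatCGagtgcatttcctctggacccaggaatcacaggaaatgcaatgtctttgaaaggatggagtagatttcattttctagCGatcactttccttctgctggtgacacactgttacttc
Slc4a5: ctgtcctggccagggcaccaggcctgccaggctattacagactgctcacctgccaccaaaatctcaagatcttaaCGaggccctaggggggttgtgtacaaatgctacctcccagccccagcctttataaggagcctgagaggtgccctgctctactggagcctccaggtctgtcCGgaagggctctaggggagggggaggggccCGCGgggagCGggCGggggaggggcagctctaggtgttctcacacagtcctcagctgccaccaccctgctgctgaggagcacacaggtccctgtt
Magohb: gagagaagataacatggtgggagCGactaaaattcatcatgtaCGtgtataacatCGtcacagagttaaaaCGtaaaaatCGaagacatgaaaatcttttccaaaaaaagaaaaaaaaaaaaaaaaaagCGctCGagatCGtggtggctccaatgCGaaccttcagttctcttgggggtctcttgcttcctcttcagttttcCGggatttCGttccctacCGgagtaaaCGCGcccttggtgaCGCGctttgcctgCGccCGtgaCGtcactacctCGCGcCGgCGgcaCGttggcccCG
Cr1l: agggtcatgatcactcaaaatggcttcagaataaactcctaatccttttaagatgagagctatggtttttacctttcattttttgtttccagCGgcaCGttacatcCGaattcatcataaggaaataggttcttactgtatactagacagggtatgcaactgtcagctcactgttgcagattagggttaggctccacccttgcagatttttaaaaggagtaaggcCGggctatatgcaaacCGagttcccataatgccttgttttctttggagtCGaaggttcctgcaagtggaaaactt
The windows differ in CpG content. Magohb holds 25 CpG sites, more than 81.6% of the 32851 promoters in the same table. Slc4a5 and Cr1l hold 6 each, more than 43.6% of promoters, and Lincenc1 holds 4, more than 31.4%. The median promoter holds 7. By this count the 4 windows include 1 CpG-rich sequence and 3 below the median. The ratio of CpG sites to the number that C and G content predicts gave another order. It was 1.43 for Magohb and 0.47 for Cr1l, above the promoter median of 0.38. Lincenc1 at 0.30 and Slc4a5 at 0.20 were below that median.

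Motifs were searched on both strands, and none of the words searched contains another. The TATA box word TATAAA was found on the opposite strand of the Slc4a5 window, and in 13.6% of all promoters. The GC box word GGGCGG was found in the Slc4a5 window and in 35.7% of all promoters. The CCAAT word occurred at 2 places in the Lincenc1 window and at 1 in the Magohb window, and in 37.4% of all promoters. The E-box word CACGTG was in none of the 4 windows and in 7.15% of all promoters. No word was common to all 4 windows. The Lincenc1 window belongs to the upstream start of its 2 counted transcripts, the Slc4a5 window to the start of 2 of its 3, the Magohb window to that of 1 of its 3, and the Cr1l window lies within 100 bases of the start of 2 of its 5.

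The libraries held 11336399 aligned reads in DAXX knockout cells, 14097738 in ATRX knockout cells and 14080945 in wildtype. Daxx had 623 reads in DAXX knockout cells against 1125 in wildtype, a log2 fold of -0.44 (-0.59 to -0.30), which is inside the 2-fold limit. Atrx had 1800 reads in ATRX knockout cells against 4582 in wildtype, a log2 fold of -1.28 (-1.36 to -1.20). The transcripts of 12 pluripotency markers, among them Pou5f1, Sox2 and Nanog, summed to 8704, 8724 and 8961 TPM (reads scaled by transcript length and library size) in the DAXX knockout, ATRX knockout and wildtype libraries, with none at 0. The defining markers of stem cells were thus present in all 3 libraries.

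All 5 genes were expressed in the wildtype library and were reduced in both knockouts. On the TPM scale, which divides by transcript length and permits levels of different genes to be compared, wildtype levels were 84.7 for Shcbp1, 68.9 for Lincenc1, 38.4 for Cr1l, 30.9 for Magohb and 4.75 for Slc4a5. These exceed the level of 88.1%, 85.2%, 75.9%, 71.7% and 40.7% of the genes with a read in that library. In DAXX knockout cells the order was Lincenc1 at 7.08, Shcbp1 at 4.05, Cr1l at 2.76, Magohb at 1.60 and Slc4a5 at 0.306 TPM. The ATRX knockout had Shcbp1 at 17.02, Cr1l at 11.4, Lincenc1 at 5.25, Magohb at 1.92 and Slc4a5 at 0.152 TPM. Slc4a5 was the lowest of the 5 and Magohb the next in every library, while Shcbp1, Lincenc1 and Cr1l changed places.

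**Figure D1:**
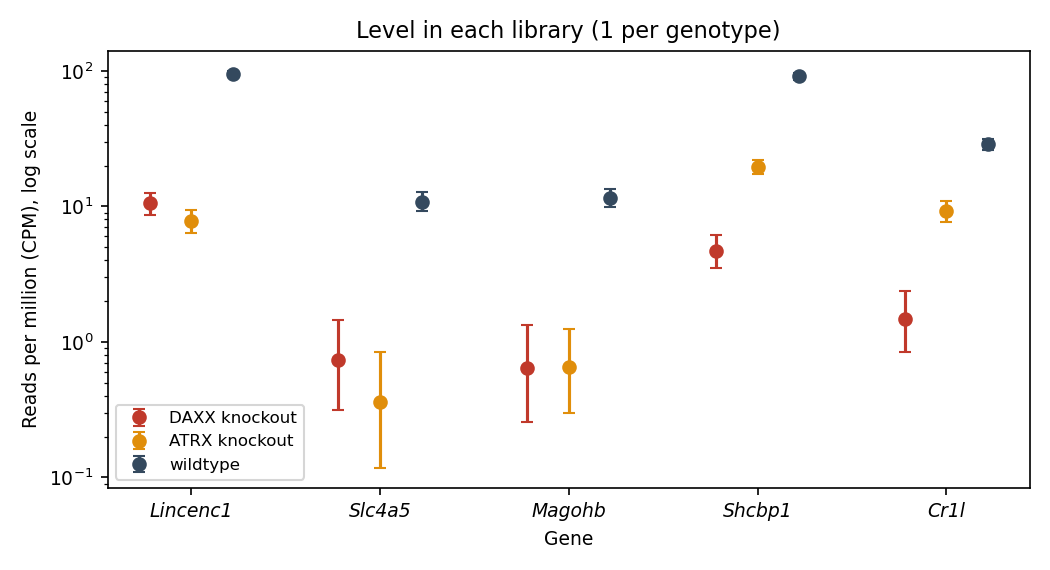
CPM (log axis) of the 5 genes in the DAXX knockout, ATRX knockout and wildtype libraries, 1 library each, with bars for the 95% Poisson interval of the count. Wildtype lies above both knockouts for every gene, and the knockouts lie apart for Shcbp1 and Cr1l.

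Lincenc1 was the long noncoding member. It spans positions 97434970 to 97497007 of chromosome 13, plus strand (GRCm38, GENCODE M21). It had 115 reads in DAXX knockout cells, 108 in ATRX knockout cells and 1381 in wildtype, or 10.5, 7.80 and 95.1 CPM. Both knockouts were low by a similar amount. The DAXX knockout kept 11.1% of the wildtype level (9.07% to 13.4%), a log2 fold of -3.18 (-3.46 to -2.90), and the ATRX knockout kept 8.20% (6.68% to 9.98%), a log2 fold of -3.61 (-3.90 to -3.33). Between the knockouts, the level in ATRX knockout cells was 74.1% of that in DAXX knockout cells (56.4% to 97.2%), inside the 2-fold limit.

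Slc4a5, the bicarbonate transporter, spans positions 83219828 to 83304945 of chromosome 6, plus strand. It had 8 reads in DAXX knockout cells, 5 in ATRX knockout cells and 157 in wildtype, or 0.733, 0.361 and 10.8 CPM. The reads left in each knockout were few, and their Poisson intervals, 3.45 to 15.8 and 1.62 to 11.7 reads, overlapped. The log2 fold stood at -3.88 (-5.12 to -2.87) in DAXX knockout cells and -4.90 (-6.55 to -3.65) in ATRX knockout cells. At this depth the ratio of the knockouts ranged from 12.7% to 171%, so a difference between them was not detectable.

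Magohb lies on the minus strand of chromosome 6 at 131284388 to 131293244. Its 7 reads in DAXX knockout cells, 9 in ATRX knockout cells and 167 in wildtype amount to 0.641, 0.650 and 11.5 CPM. The DAXX knockout kept 5.57% of the wildtype level (2.21% to 11.7%) and the ATRX knockout 5.65% (2.54% to 10.98%). Their log2 folds were -4.17 (-5.50 to -3.09) and -4.15 (-5.30 to -3.19). The ratio of ATRX knockout to DAXX knockout was 101%, with an interval of 33.6% to 320% that leaves room for either direction.

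Shcbp1, the Shc-binding protein, lies on the minus strand of chromosome 8 at 4735976 to 4779567. It had 51 reads in DAXX knockout cells, 272 in ATRX knockout cells and 1318 in wildtype, or 4.67, 19.6 and 90.8 CPM. Here the libraries formed 3 separate levels. The DAXX knockout kept 5.14% of the wildtype level (3.81% to 6.80%), a log2 fold of -4.28 (-4.71 to -3.88), and the ATRX knockout kept 21.6% (18.9% to 24.7%), a log2 fold of -2.21 (-2.40 to -2.02). The ATRX knockout stood above the DAXX knockout by a log2 fold of 2.07 (1.64 to 2.53).

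Cr1l, the complement regulator, lies on the minus strand of chromosome 1 at 195097382 to 195131586. It had 16 reads in DAXX knockout cells, 128 in ATRX knockout cells and 415 in wildtype, or 1.46, 9.24 and 28.6 CPM. As for Shcbp1, the order was DAXX knockout, ATRX knockout, wildtype from low to high. The log2 fold stood at -4.29 (-5.11 to -3.57) in DAXX knockout cells and -1.63 (-1.93 to -1.34) in ATRX knockout cells. Between the knockouts the log2 fold, ATRX knockout over DAXX knockout, was 2.66 (1.90 to 3.51).

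**Figure D2:**
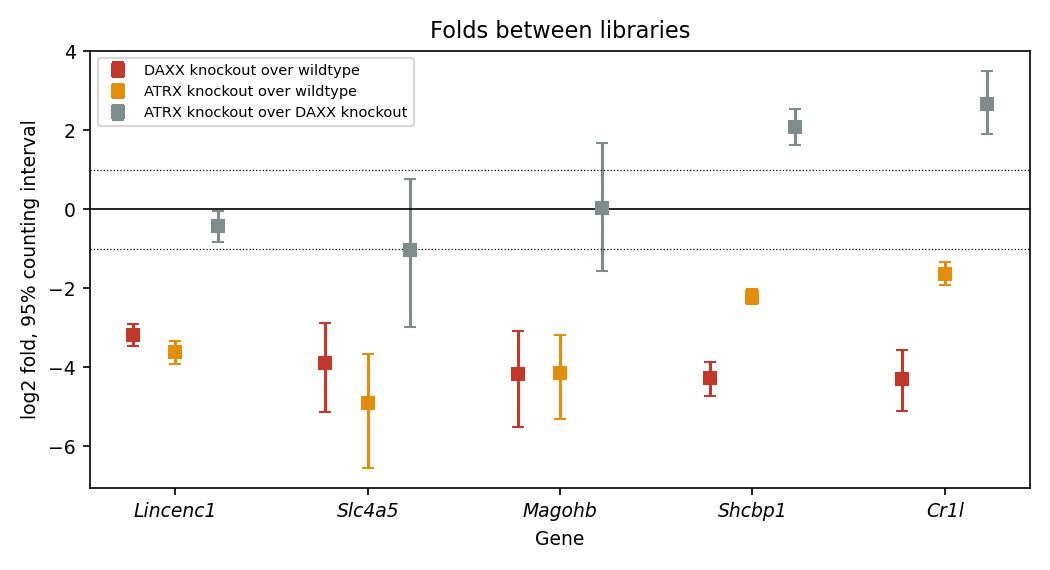
Log2 folds of the 5 genes in 3 pairs of libraries, with 95% counting intervals. Dotted lines mark 2-fold. All folds over wildtype lie below the lower line, and the ATRX knockout over DAXX knockout fold lies above the upper line for Shcbp1 and Cr1l.

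As the choice of members implies, all 5 passed the 2-fold limit in both contrasts with wildtype. Over all genes, 204 of 13151 tested were lower in DAXX knockout cells (1.55%), 152 of 13230 in ATRX knockout cells (1.15%) and 78 of 13045 in both (0.598%), where both counts use the same wildtype library. The rule used these contrasts, so nothing is read from the members' count. Between the knockouts, 3 of the 5 had enough reads to be tested, and Shcbp1 and Cr1l were higher in ATRX knockout cells, against 100 of 12991 genes in that direction (0.77%). Lincenc1 was inside the limit there. Slc4a5 and Magohb stayed under 1 CPM in both knockouts and were not tested. The counts of both knockouts had served to choose the members, so this contrast is a description too, and nothing is read from its count.

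**Figure D3:**
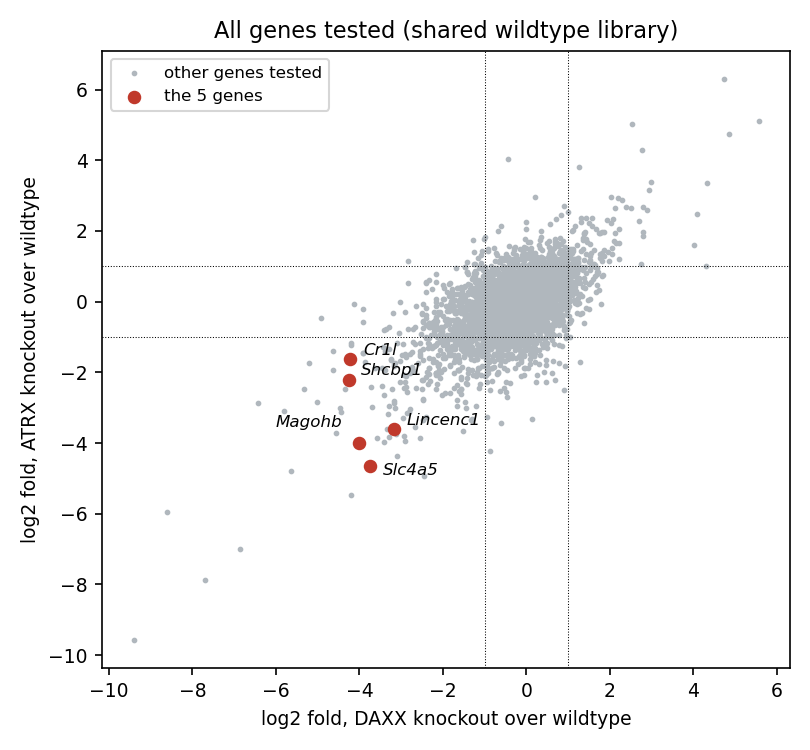
Log2 fold in DAXX knockout over wildtype (x axis) and in ATRX knockout over wildtype (y axis), with a prior count of 1, for all genes tested in either contrast in grey and the 5 genes in red. Both axes share the wildtype library, so the diagonal spread of the cloud is in part built in. Cr1l and Shcbp1 lie nearer to 0 on the y axis than Lincenc1, Magohb and Slc4a5.

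Summed markers of primitive endoderm, trophoblast and feeder fibroblasts were also lower in both knockouts, in the order seen for Shcbp1 and Cr1l. The 11 primitive endoderm markers summed to 156 TPM in DAXX knockout cells, 239 in ATRX knockout cells and 418 in wildtype. In DAXX knockout cells 11 of 11 were lower, beside 1.55% of all genes. In ATRX knockout cells 3 of 11 were lower, namely Dab2, Cubn and Lama1, beside 1.15% of all genes. Sox17 was at 0 in DAXX knockout cells. Trophoblast markers summed to 69.6, 85.1 and 129 TPM over 10 genes, with Hand1 at 0 in DAXX knockout cells, Elf5 at 0 in ATRX knockout cells, and Cdx2 and Elf5 at 0 in wildtype. Of 7 tested, 2 were lower in DAXX knockout cells and 1 in ATRX knockout cells. Feeder fibroblast markers summed to 8.47, 14.1 and 30.01 TPM over 10 genes. Of these, Col3a1, Lum, Dcn and Postn were at 0 in both knockouts and Lum was also at 0 in wildtype. Of 6 tested, 4 were lower in DAXX knockout cells and 1 in ATRX knockout cells. In at least 1 knockout, 9 of the 11 primitive endoderm markers and 4 of these 6 reached 1 CPM. The others were tested through wildtype alone, where they are high, so nothing is read from these counts of lower markers. The 4 neuroectoderm markers tested did not follow that order, with 0 past the limit in either knockout and median log2 folds of 0.09 in DAXX knockout cells and -0.53 in ATRX knockout cells. The part of these cells in the levels of the 5 genes was not tested.

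The counted transcripts of each gene fell together in nearly all cases. The Lincenc1 transcripts begin at 97434970 and 97482701 and share their last exon. The row of the upstream start took 43.5% of the gene's reads in DAXX knockout cells (34.3% to 53.0%), 49.1% in ATRX knockout cells (39.3% to 58.9%) and 47.9% in wildtype (45.2% to 50.5%). Only 4.57% of its sequence words of 36 bases are not in the other row, so most reads could have been placed on either, and the shares do not separate the starts. The same holds for Slc4a5, whose 3 rows had 3, 2 and 3 reads in DAXX knockout cells, 2, 1 and 2 in ATRX knockout cells and 57, 52 and 48 in wildtype. Shcbp1 was counted on 1 row.

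For Cr1l the share of a row differed between the knockouts, on few reads, while for Magohb the intervals of the knockouts overlapped. The 546-base Magohb row, annotated as a retained intron, had 1 read in DAXX knockout cells, 5 in ATRX knockout cells and 29 in wildtype. The 767-base coding row had 5, 4 and 96 reads. In ATRX knockout cells the retained intron row held 55.6% of the gene's 9 reads (21.2% to 86.3%), against 17.4% in wildtype (11.9% to 24.0%), and the intervals overlap. In DAXX knockout cells it held 14.3% of 7 reads (0.361% to 57.9%). Of the 5 Cr1l rows, the 561-base row had 5 reads in DAXX knockout cells, 5 in ATRX knockout cells and 28 in wildtype. It held 31.2% of the gene's reads in DAXX knockout cells (11.02% to 58.7%) and 3.91% in ATRX knockout cells (1.28% to 8.88%), against 6.75% in wildtype (4.53% to 9.60%). Its log2 fold of -2.07 (-3.80 to -0.68) was the smallest fall of any row of the 5 genes in DAXX knockout cells. Only 6.46% of the words of 36 bases in this row are in no other Cr1l row. Most of its reads could thus have been placed on another row, and the share does not separate the transcripts.

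The counted transcripts share little sequence with those of other genes. For Lincenc1, Slc4a5, Magohb and Shcbp1, 0 of the words of 36 bases in their counted transcripts occurred in a transcript of another gene, on either strand. For Cr1l, 17 of 2741 words of its longest row and 5 of 1466 words of another did so, and 0 of those of 50 bases. The sources used here do not state the read length. Within their spans, Lincenc1, Magohb and Shcbp1 each contain 1 annotated processed pseudogene, none of which is among the counted sequences.

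Magohb has a close relative, Magoh, on chromosome 4. Their coding sequences of 447 and 441 bases are 79.9% identical, with no identical run longer than 17 bases. The aligned stretches below are shown because they show how far the sequences of the 2 genes differ. They cover coding bases 7 to 96 of Magohb, from exons within chr6:131289446-131293159 on the minus strand, and coding bases 1 to 90 of Magoh, from exons within chr4:107879858-107880894 on the plus strand, both from GENCODE M21 transcripts on GRCm38. Capitals mark the 21 positions that differ.
Magohb: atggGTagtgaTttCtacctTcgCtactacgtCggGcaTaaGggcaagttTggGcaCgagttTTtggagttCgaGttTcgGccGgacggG
Magoh: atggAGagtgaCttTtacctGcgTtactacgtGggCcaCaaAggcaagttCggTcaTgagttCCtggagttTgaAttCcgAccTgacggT
Magoh had 1275 reads in DAXX knockout cells, 1433 in ATRX knockout cells and 1470 in wildtype. Relative to wildtype this was a log2 fold of 0.21 (0.10 to 0.31) without DAXX and 0.03 (-0.07 to 0.14) without ATRX. In wildtype Magohb reads were thus a small addition to those of Magoh, and in the knockouts nearly all reads of the pair came from Magoh.

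Other genes of each member's pathway were taken from lists chosen for the known roles of the members, and members were left out of the counts. Over all genes, 1.55% were lower and 0.487% higher in DAXX knockout cells, and 1.15% lower and 0.695% higher in ATRX knockout cells. In lists this short a count of 0 is near those shares, and nothing is read from it. In the exon junction complex and nonsense-mediated decay list, 17 genes were tested and 0 were lower or higher in either knockout. The median log2 fold was 0.09 in DAXX knockout cells and 0.03 in ATRX knockout cells, beside 0.02 over all genes tested in each. Rbm8a, which binds MAGOH directly, was at 0.04 (-0.03 to 0.12) and -0.05 (-0.13 to 0.02). Eif4a3, the helicase of the complex, was at -0.11 (-0.17 to -0.04) and -0.35 (-0.42 to -0.29).

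Among bicarbonate transporters of the SLC4 family and carbonic anhydrases, 15 genes were tested. In DAXX knockout cells Car4 and Car12, which encode membrane-bound carbonic anhydrases, were lower and Car2, the main cytosolic one, was higher. In ATRX knockout cells Car2 was the 1 gene past the limit. Car2 had 911 reads in DAXX knockout cells, 1723 in ATRX knockout cells and 456 in wildtype, with log2 folds of 1.41 (1.25 to 1.57) and 1.99 (1.84 to 2.14). Over all genes 0.487% were higher and 1.55% lower in DAXX knockout cells, and 0.695% were higher and 1.15% lower in ATRX knockout cells. Car12 had 6, 38 and 74 reads and log2 folds of -3.21 (-4.71 to -2.02) and -0.89 (-1.50 to -0.31), and Car4 had 8, 25 and 47 reads. Both were under 1 CPM in DAXX knockout cells and were tested there through wildtype, where they are high, so nothing is read from their calls. Slc4a7, which encodes an electroneutral sodium bicarbonate cotransporter, had 592, 1332 and 940 reads and log2 folds of -0.26 (-0.41 to -0.11) and 0.57 (0.45 to 0.69). The list medians were -0.26 in DAXX knockout cells and 0.32 in ATRX knockout cells, beside 0.02 for all genes.

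Genes linked to Shcbp1 in signalling and cell division were examined next. Over all genes, 1.55% were lower in DAXX knockout cells and 1.15% in ATRX knockout cells. In the list of Shc adaptors, centralspindlin and cytokinesis genes, 20 were tested and 0 were past the limit in either knockout. Their medians were -0.04 in DAXX knockout cells and 0.08 in ATRX knockout cells. Kif23 and Racgap1, the subunits of centralspindlin, were at -0.10 (-0.20 to 0.01) and -0.06 (-0.15 to 0.03) in DAXX knockout cells, and at 0.03 (-0.06 to 0.13) and 0.14 (0.06 to 0.22) in ATRX knockout cells. Shc1, whose product SHCBP1 binds, was at 0.33 (0.21 to 0.45) and 0.43 (0.32 to 0.53). The lowest value was that of Shcbp1l, a relative of Shcbp1 known from the testis, with 7 reads in DAXX knockout cells, 20 in ATRX knockout cells and 41 in wildtype. Its log2 fold in DAXX knockout cells was -2.14 (-3.54 to -0.97), so the interval crossed the 2-fold limit.

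Most complement genes were too low to be tested, 7 of the 22 having 1 CPM. Cd59a, which stops assembly of the membrane attack complex, was higher in DAXX knockout cells, with 68 reads there, 48 in ATRX knockout cells and 22 in wildtype and log2 folds of 2.04 (1.33 to 2.80) and 1.19 (0.44 to 1.99). Cd55, which speeds the decay of complement convertases, had 49, 148 and 105 reads, with log2 folds of -0.69 (-1.21 to -0.19) and 0.56 (0.19 to 0.94). Of the 7, 1 was thus higher in DAXX knockout cells, beside 0.487% of all genes, and none was lower in either knockout. Cr2 and Cd46, a complement receptor gene and a complement regulator gene on the same chromosome as Cr1l, were under 1 CPM in all libraries. Cr2 had 0 reads in DAXX knockout cells, 1 in ATRX knockout cells and 14 in wildtype, and was at least 3.51-fold lower in DAXX knockout cells against a floor of 3 counts. Cd46 had 0 reads in each knockout and 4 in wildtype.

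For Lincenc1, its reported protein partners and glycolysis genes were examined together. Ptbp1 was at 0.19 (0.16 to 0.23) in DAXX knockout cells and 0.15 (0.11 to 0.19) in ATRX knockout cells, and Hnrnpk at 0.14 (0.11 to 0.17) and 0.02 (-0.01 to 0.05). None of the 18 genes of the list was past the limit in either knockout. In ATRX knockout cells 18 of 18 had a log2 fold above 0, with a median of 0.37, and in DAXX knockout cells 11 of 18, with a median of 0.07. The median over all genes tested was 0.02 in each. The share of all genes above 0 was not counted, so nothing is read from these 2 counts. Of 8 other long noncoding RNAs tested, 0 were past the limit in DAXX knockout cells. In ATRX knockout cells, where 1.15% of all genes were lower, 1 of the 8 was lower. This was Malat1, an abundant nuclear RNA, with 2742 reads in DAXX knockout cells, 1851 in ATRX knockout cells and 6209 in wildtype and log2 folds of -0.77 (-0.83 to -0.70) and -1.68 (-1.75 to -1.60).

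**Figure D4:**
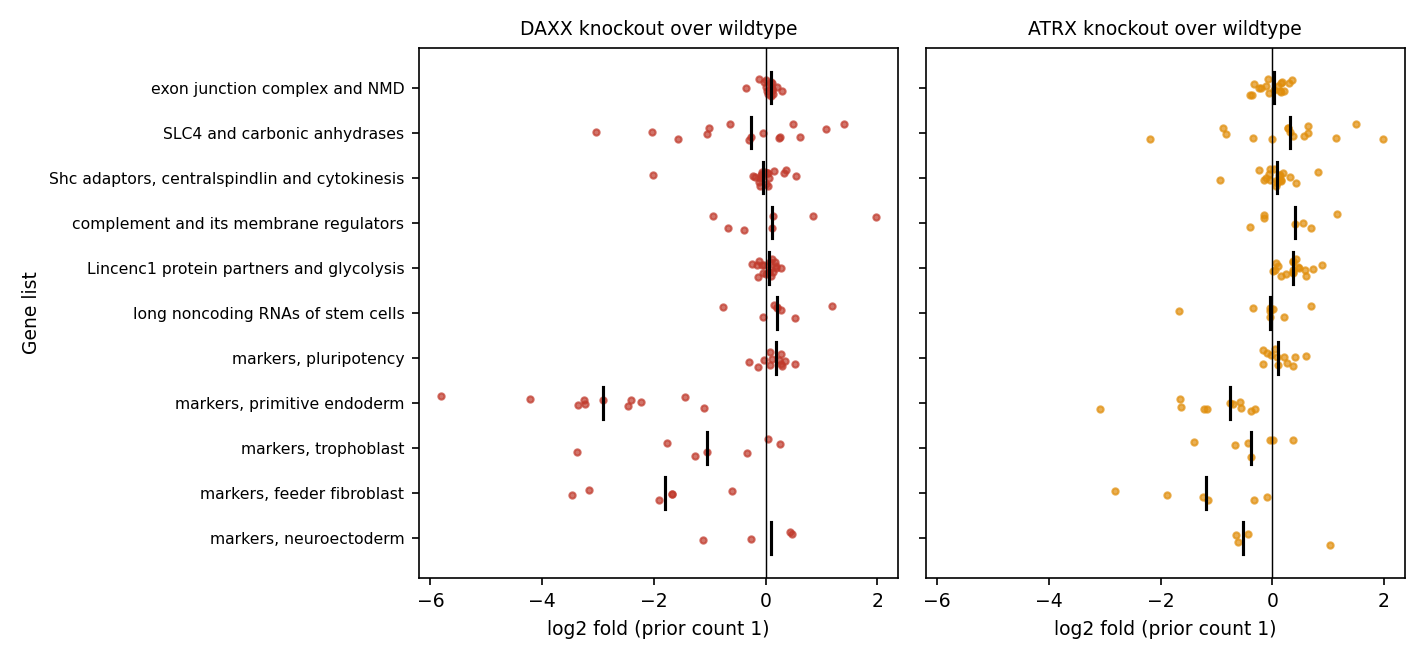
Log2 folds (prior count 1) over wildtype of the genes tested in each list, members left out, in DAXX knockout cells (left) and ATRX knockout cells (right). Points are genes and black bars are list medians. The lowest median in DAXX knockout cells is that of primitive endoderm markers, at -2.90, and in ATRX knockout cells that of feeder fibroblast markers, at -1.19, while the exon junction complex list lies close to 0.

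The chromosomal neighbours of the members are a measure that the choice of genes did not use. For each gene the 5 nearest genes on either side with at least 1 CPM in any library were taken. This gave 45 neighbours, because Cr1l had 5 on 1 side and no measured gene on the other. Genes under 1 CPM in all libraries, such as Cr2 and Cd46 on the chromosome of Cr1l, could not enter this count. Such genes can lie closer to a member than the neighbours counted. In DAXX knockout cells 1 of 44 tested was lower, beside 1.55% of all genes, and 0 were higher, with a median log2 fold of 0.02 and a range of -1.62 to 0.54. In ATRX knockout cells 0 of 44 were lower, beside 1.15% of all genes, and 0 were higher, with a median of -0.02 and a range of -1.04 to 2.21. These counts are near the shares of all genes, so nothing particular to the neighbours is read from them. Distances ran from 0.746 kb, for Mthfd2 beside Slc4a5, to 6205 kb, for Irs2 on the chromosome of Shcbp1, so some neighbours lie far off.

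Around Lincenc1, the nearest measured gene was Enc1, an actin-binding protein gene 182 kb away. It was at 0.44 (0.34 to 0.53) in DAXX knockout cells and 0.26 (0.17 to 0.35) in ATRX knockout cells. Foxd1, a forkhead transcription factor gene on the other side, had 2 reads in DAXX knockout cells, 22 in ATRX knockout cells and 5 in wildtype. It reached 1 CPM in ATRX knockout cells alone, so it was included through the library where it is high, and its log2 fold there over wildtype was 2.21 (0.77 to 3.96). Next to Slc4a5, Mthfd2, which encodes a mitochondrial enzyme of folate metabolism, lies 0.746 kb from the gene. It had 1582, 1088 and 2183 reads and log2 folds of -0.05 (-0.15 to 0.04) and -0.94 (-1.04 to -0.83). Dctn1, on the other side, was at 0.27 and -0.04. Ybx3, the nearest measured neighbour of Magohb, was at 0.08 and 0.02.

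The surroundings of Shcbp1 held the neighbour that passed the limit. Cers4, a ceramide synthase gene 204 kb away, had 65 reads in DAXX knockout cells, 135 in ATRX knockout cells and 242 in wildtype, with log2 folds of -1.49 (-1.90 to -1.09) and -0.77 (-1.09 to -0.46). Zfp958, between Cers4 and Shcbp1, had 107, 170 and 284 reads, with 50.1% of the wildtype level in DAXX knockout cells (39.7% to 62.8%) and 62.7% in ATRX knockout cells (51.6% to 76.1%). Elavl1 and Timm44, farther out on the same side, were at 0.16 and 0.13 in DAXX knockout cells. The nearest measured neighbour of Cr1l was Cd34, a surface glycoprotein gene 136 kb away, with 12, 41 and 49 reads. Its log2 fold of -1.62 (-2.67 to -0.69) in DAXX knockout cells did not clear the limit.

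**Figure D5:**
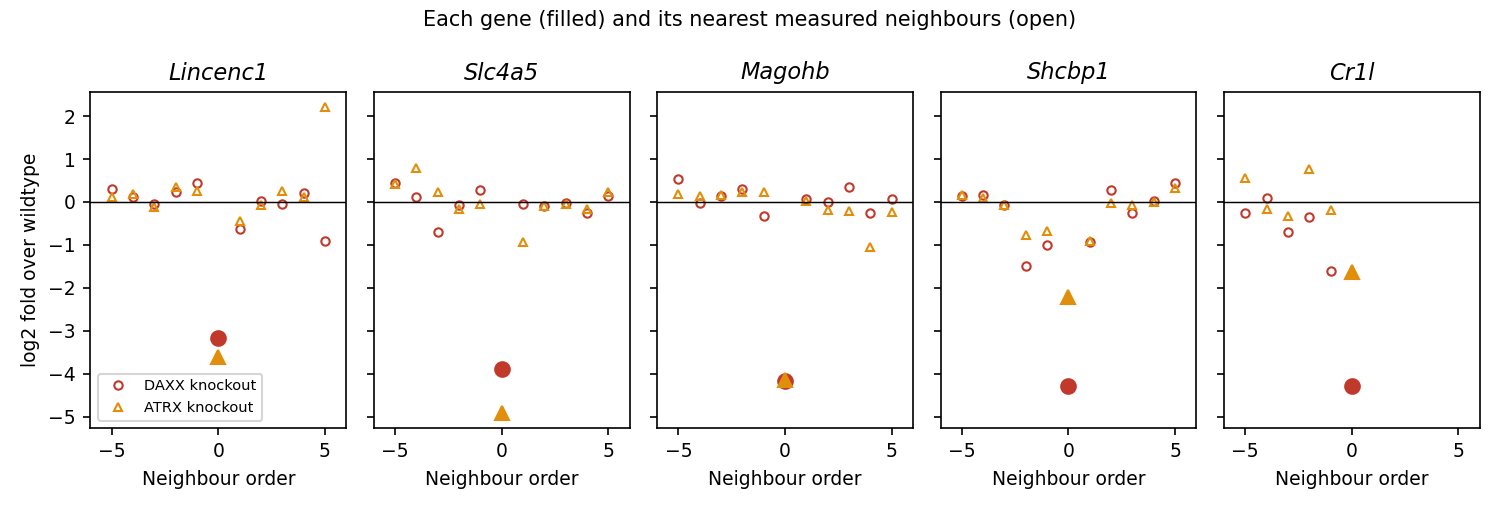
Log2 fold over wildtype of each gene (filled, at 0) and of its nearest measured neighbours (open, numbered outward by order along the chromosome) in DAXX knockout cells (circles) and ATRX knockout cells (triangles). The filled points lie below nearly all open ones, except that Cr1l in ATRX knockout cells, at -1.63, is level with Cd34 in DAXX knockout cells.

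Genes with the most similar pair of folds were searched among those with at least 5 CPM in wildtype, by the distance between log2 folds in both knockouts. They were chosen for this likeness, and the 3 libraries are all that it rests on. Nearest to Lincenc1 were Rec114, a gene of meiotic recombination, Tfpi, an inhibitor of blood coagulation, and Mageb16, an X-linked gene of the MAGE family, at distances of 0.26, 0.36 and 0.44. Tfpi had 36 reads in DAXX knockout cells, 36 in ATRX knockout cells and 381 in wildtype. Mageb16 and Rec114 were also the nearest genes to Slc4a5, at 0.77 and 0.95, and to Magohb, at 0.60 and 0.74, with Rhox5, an X-linked homeobox gene, next for Slc4a5 at 1.32 and Tfpi next for Magohb at 1.26. For Cr1l and Shcbp1 the nearest was Pou2f3, a POU transcription factor gene with 3, 21 and 74 reads, at 0.35 and 0.63. Uty, a gene on the Y chromosome with 17, 178 and 434 reads, followed for Cr1l at 0.41, with Krt19, a keratin, at 0.86. Smoc1, a secreted matrix protein gene with 14, 51 and 207 reads, followed for Shcbp1 at 0.90, with Uty at 0.99. Their likeness to the members is what chose them and is no result.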

How the data were processed

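Polyadenylated RNA from 3 mouse embryonic stem cell clones was measured, with 1 library per genotype. The values are raw read counts as deposited by the authors, per transcript or repeat sequence and not normalised. The submitters' processing notes name the aligner Bowtie (1.1.2), SAMtools and the build GRCm38.p4. The sources used here do not state alignment settings, read length, strand use or annotation release. The tables hold 48843 transcripts and 1564 repeat sequences.

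Transcript counts were summed per symbol and scaled by trimmed mean of M values (edgeR 4.0.16, R 4.3.3). Fold intervals are exact conditional binomial and share intervals exact Clopper-Pearson, at 95%. Both cover counting error only, as PCR copies are not independent. TPM was computed from counts and row lengths. With 0 residual degrees of freedom no p-value was computed. Medians of lists use a prior count of 1. The interval rule was tested on simulated data.

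Members and lists were chosen with earlier results of these data known. Named genes were the members, list genes past the limit, fixed close relatives, chromosomal neighbours (up to 5 per side) and the 3 genes nearest in fold pattern, leaving out predicted genes and pseudogenes. Some relatives and neighbours were chosen for mention after their values were seen. Positions are from GENCODE M21. Alternatives were total counts, DESeq2 1.42.0 size factors, the most abundant transcript, thinned counts, and other filters and thresholds. The summed level of the neuroectoderm markers is not reported here.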

Additional observations from a re-analysis of the deposited data

How the results depend on the processing

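With total transcript counts, DESeq2 size factors, the most abundant transcript or thinned counts, 40 of 40 values of the 5 genes over wildtype kept their direction and their side of the 2-fold limit. Between the knockouts 19 of 20 did so. The exception was Magohb, whose log2 fold of ATRX knockout over DAXX knockout was 0.02 and became -0.66 with the most abundant transcript, which uses 4 reads in the ATRX knockout and 5 in the DAXX knockout.

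The counts of all genes past the limit depend on the rule that defines them. In the DAXX knockout 204 genes were lower, but 108 with a filter of 5 CPM, 796 by point estimate, 412 at 1.5-fold and 50 at 4-fold. Higher genes numbered 64, and 208, 184 and 16 by the last 3 rules. In the ATRX knockout 152 were lower, and 88, 607, 364 and 37 by the 4 rules, while 92 were higher, and 327, 336 and 17 by the last 3. In ATRX knockout over DAXX knockout 47 were lower, and 279, 193 and 5 by the last 3, while 100 were higher, and 64, 604, 325 and 8 by the 4. Genes lower in both knockouts numbered 78, and 42, 332, 171 and 20 by the 4. The other 38 of 63 counts stayed within 1.5 times. Fewer genes are tested under the 5 CPM filter, and the other rules move the threshold itself.

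No paired analysis was possible because each genotype has 1 library. Leaving out a library leaves no comparison. Depth limits Slc4a5 and Magohb most, with under 10 reads in each knockout.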

Other observations

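Of the 78 genes lower in both knockouts, 64 are autosomal, 13 lie on the X chromosome and 1 on the Y chromosome. On the chromosomes that carry the 5 genes, the median log2 fold over tested genes in the DAXX knockout was 0.08 on chromosome 1, 0.02 on chromosome 6, 0.06 on chromosome 8 and 0.02 on chromosome 13. The medians in the ATRX knockout were 0.06, 0.02, 0.07 and 0.04. Lower genes in the DAXX knockout made up 1.60%, 1.69%, 1.79% and 1.07% of the genes tested on these chromosomes, beside 1.55% over all chromosomes. In the ATRX knockout they made up 1.07%, 1.68%, 0.966% and 0.424%, beside 1.15% over all chromosomes. The 5 members are among these lower genes, so nothing is read from these shares.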
